A study of Homo sapiens with 8 samples.

Results

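The AP-1 factor genes examined here are the 10 genes FOS, FOSB, FOSL1, FOSL2, JUN, JUNB, JUND, BATF, BATF3 and ATF3, out of 20033 protein-coding genes in the annotation. Open chromatin around them was taken as every called peak that overlapped the gene body or the 50 kb on either side of it, in GENCODE release 44 coordinates on hg38. Overlapping peaks were merged into regions, and regions of the 4 peak lists were merged into a union, which gave 201 regions in these windows of 161291 in all. Of the 201, the nearest protein-coding start was that of an AP-1 gene for 113 and that of a neighbouring gene for 88, and 9 lay in the windows of both ATF3 and BATF3, which neighbour each other on chromosome 1.

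The assay was ATAC-seq, which cuts accessible DNA with a transposase, in U-937, an established human myeloid leukaemia line that can be driven toward monocyte-like cells. Cells were kept for 24 h in 1 of 4 conditions: DMSO vehicle, all-trans retinoic acid (ATRA) at 0.1 µM, Corin at 0.1 µM, or both compounds at 0.1 µM each. ATRA is the natural ligand of the retinoic acid receptors, and Corin is a dual inhibitor of the demethylase and deacetylase activities of the CoREST co-repressor complex. Each group had 2 samples, but the data used here were 1 pooled peak list per group, so no spread between replicates could be measured and no test of a difference was possible. Peak numbers were 222491 (DMSO), 222110 (ATRA), 189896 (Corin) and 197548 (both compounds), and the depth of the libraries was not given in the sources used here. Of 8 genes typical of myeloid cells, 7 had their start inside a called region in all 4 lists, among them SPI1 and CD33, and only MPO had none in any list. None of 4 lymphoid genes, among them CD3E and PAX5, had one in any list.

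AP-1 is a dimer of basic leucine zipper proteins. JUN proteins pair with each other or with FOS proteins, which cannot pair among themselves, and BATF and ATF proteins join the same network as further partners of JUN. Many of the genes are immediate-early genes, transcribed within minutes of a growth factor, stress or cytokine signal from promoters that are already open, and in myeloid cells AP-1 acts in the monocyte and macrophage programme.

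Sequences at some of the summits and regions described below are shown first. They are the 200 bp around a summit, read from hg38. Windows at FOS and JUND lie upstream of the gene and are given on the strand of the gene. The FOS window, chr14:75278408-75278607, is the point where the strongest FOS peak sat with ATRA, and its capitals mark a CArG box, the kind of site bound by serum response factor. The JUND window, chr19:18281804-18282003, is the strongest JUND summit of all lists, and its capitals mark a cAMP response element (TGACGTCA).
FOS upstream summit: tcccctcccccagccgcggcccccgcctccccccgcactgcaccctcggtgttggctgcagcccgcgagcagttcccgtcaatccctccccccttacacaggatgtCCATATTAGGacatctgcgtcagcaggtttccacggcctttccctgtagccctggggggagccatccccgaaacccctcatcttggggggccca
JUND upstream summit: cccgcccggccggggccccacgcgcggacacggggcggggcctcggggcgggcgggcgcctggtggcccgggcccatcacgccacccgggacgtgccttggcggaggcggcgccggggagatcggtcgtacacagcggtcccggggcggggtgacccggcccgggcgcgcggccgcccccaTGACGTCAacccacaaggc
The CArG box of FOS spanned positions -314 to -305 from the annotated start, and the element of JUND spanned -200 to -193. A CArG box was found in 1.18% of all regions in windows of the same length, and TGACGTCA in 0.298%. In annotated promoters of 300 bp the shares were 1.29% and 1.85%. The windows at the strongest start summit of the other AP-1 genes, among them FOSB, JUN, JUNB and ATF3, held neither motif. Whether either motif goes with the height of a summit was not tested.

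A selection of distal regions with large differences between lists is given on the plus strand. The FOSL1 window had the largest ratio of folds with ATRA, and the FOSL2 window at 31217 bp was the last of the 5 largest. Those ranked between them, at FOS 5283 bp, ATF3 -65704 bp and BATF3 -10895 bp, held none of the motifs searched and are not printed. Capitals mark an AP-1 site (TGANTCA) in the FOSL1, BATF and JUN windows and a PU.1 site (GAGGAAGT or its reverse complement) in the FOSL2 window at 31217 bp. The FOSL2 window at -49460 bp held none of the motifs searched. The windows are chr2:28343298-28343497, chr2:28423975-28424174, chr11:65941423-65941622, chr14:75566468-75566667 and chr1:58823791-58823990, in the order below.
FOSL2 -49460 bp: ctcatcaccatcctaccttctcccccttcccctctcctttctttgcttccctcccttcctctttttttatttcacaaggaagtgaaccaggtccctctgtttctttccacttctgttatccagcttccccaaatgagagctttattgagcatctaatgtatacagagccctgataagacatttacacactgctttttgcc
FOSL2 31217 bp: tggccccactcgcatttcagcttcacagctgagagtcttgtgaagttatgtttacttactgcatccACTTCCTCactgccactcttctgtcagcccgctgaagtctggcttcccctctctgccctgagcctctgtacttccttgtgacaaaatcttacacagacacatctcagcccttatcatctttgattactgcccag
FOSL1 -41135 bp: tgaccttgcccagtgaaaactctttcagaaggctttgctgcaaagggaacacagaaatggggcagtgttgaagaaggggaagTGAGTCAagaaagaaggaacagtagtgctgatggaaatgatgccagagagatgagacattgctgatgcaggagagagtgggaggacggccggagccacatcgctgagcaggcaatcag
BATF 44099 bp: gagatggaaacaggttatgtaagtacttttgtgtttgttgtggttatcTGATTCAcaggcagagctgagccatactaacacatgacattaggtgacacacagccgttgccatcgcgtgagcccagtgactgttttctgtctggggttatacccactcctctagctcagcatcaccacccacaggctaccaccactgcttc
JUN -39844 bp: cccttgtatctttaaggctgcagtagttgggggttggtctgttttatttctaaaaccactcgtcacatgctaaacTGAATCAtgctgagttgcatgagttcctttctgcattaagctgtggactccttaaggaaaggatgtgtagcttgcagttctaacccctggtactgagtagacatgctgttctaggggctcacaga
The AP-1 letters were present in 24 of the 201 windows (11.9%) and in 12.2% of all regions. The PU.1 letters were in 8 of them (3.98%) and in 6.73% of all regions. The other motifs searched, all on both strands, were TTGCNNAA (C/EBP), GGGCGGGG (KLF and SP factors), AAATCAC (GFI1) and the direct repeats of the retinoic acid receptor with a spacer of 5 or 2 bases. Neither repeat was found in any of the 201 windows, and they were in 0.0905% and 0.170% of all regions. These matches describe letters in a window and do not show binding.

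At the gene starts, all 10 genes lay in a region called in every list, compared with 57.1% of protein-coding genes. With ATRA alone, the accessible stretch that in DMSO continued from the promoter into the gene was shorter or lower at FOS, FOSB, JUN, JUNB, JUND and ATF3, and it was present again with ATRA plus Corin. The strongest upstream summits at FOS, JUN and JUND kept most of their height. At FOSL1, FOSL2, BATF and BATF3 no paired downstream summit was lower past 1.5-fold with ATRA.

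Height is given below as the read pileup at a summit, the number of reads stacked there. It was solved from the authors' fold and −log10 p of each peak, and came out whole, within 0.05, for 99.97% of the DMSO values over regions called in all 4 lists. Pileup is not corrected for library depth. Over the 66303 regions called in all 4 lists the median ratio to DMSO was 1.08 with ATRA, 0.912 with Corin and 1.14 with the combination.

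FOS encodes the founding FOS protein, the partner that makes the classic FOS-JUN dimer, and spans chr14:75278826-75282230 on the plus strand. In DMSO its start region held a summit at -322 bp with a pileup of 1138, a summit at 64 bp with 1209, and further summits at 186 bp with 960, at 444 bp with 785 and at 1158 bp with 349. With ATRA the upstream summit, at -320 bp, had a pileup of 1144, while the summit next to the start, at 7 bp, had 600, the one at 233 bp had 288, and none was called beyond it. The upstream summit was thus as high as in DMSO and the transcribed side was not. With Corin the summits at -320, 80 and 237 bp had pileups of 1081, 1272 and 1292. With the combination the summits at -324 and 70 bp had 1462 and 1680, and 1 at 1146 bp had 466. The FOS region was 1863 bp wide with DMSO, 1087 bp with ATRA, 1970 bp with Corin and 1883 bp with the combination. ATRA was the only list in which the strongest FOS summit lay upstream of the start.

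FOSB, a FOS relative induced by the same kinds of signal, spans chr19:45467995-45475179 on the plus strand. Its start region was the widest union region but 1 of the 10. In DMSO the summits at 9, 322, 491 and 972 bp had pileups of 719, 1085, 1036 and 1072, and the strongest, at 1370 bp, had 1422. With ATRA the summits at -7, 482 and 969 bp had 334, 253 and 635, while the strongest, at 1397 bp, had 1556. The upstream summit had 423 at -278 bp in DMSO and 264 at -301 bp with ATRA, and the DMSO summit at 2235 bp, with 504, had no call with ATRA. A further summit, at 1857 bp with 982 in DMSO and at 1851 bp with 978 with ATRA, was level. FOSB was thus lower with ATRA on both sides near its start, while its strongest summit, inside the gene, was as high as in DMSO. With Corin the summits at 11, 320 and 1328 bp had 835, 1293 and 1387. With the combination the summits at 6, 313, 476 and 1383 bp had 1157, 1611, 1321 and 1749, all above the DMSO values.

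JUN, the main transactivating partner of FOS, spans chr1:58776845-58784048 on the minus strand. In DMSO the summits at -181 and -8 bp had pileups of 1870 and 2070, and those at 207, 626 and 1089 bp had 1492, 960 and 618. With ATRA the summits at -162 and -41 bp had 1706 and 1904, and those at 245, 677 and 1082 bp had 734, 531 and 274. The promoter pair was close to its DMSO height and the 3 gene-body summits just listed were at 0.443 to 0.553 of theirs. A further JUN summit, at 1567 bp with 721 in DMSO and at 1540 bp with 675 with ATRA, was close to its DMSO height. From first to last peak the JUN region was 2427 bp wide with DMSO and 3099 bp with ATRA. Upstream summits at -1185 and -781 bp, with 415 and 209, were called with ATRA only. With Corin the same stretch held 1597 at 195 bp, 1288 at 600 bp and 914 at 1103 bp, and with the combination it held 1305 at 405 bp, 1287 at 610 bp and 823 at 1103 bp.

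JUNB, a JUN protein that often restrains proliferation, spans chr19:12791486-12793315 on the plus strand. In DMSO the summits at 2 and 264 bp had pileups of 1604 and 1344, and those at 764 and 1149 bp had 639 and 645. With ATRA only a summit at -35 bp, with 1260, and a summit at 262 bp, with 457, were called. The JUNB region was 1482 bp wide with DMSO, 576 bp with ATRA, 1557 bp with Corin and 1530 bp with the combination. The near-start pair had 1865 and 1671 with Corin and 2393 and 1998 with the combination.

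JUND, the JUN protein most cells express without stimulation, spans chr19:18279694-18281622 on the minus strand. In DMSO the upstream summit at -274 bp had a pileup of 1974, the summit at 14 bp had 1587, and those at 320, 886 and 1188 bp had 1386, 1042 and 979. With ATRA the summits at -273 and -8 bp had 1738 and 1452, the gene body held 224 at 491 bp, 290 at 947 bp and 589 at 1213 bp, and no summit was called near 320 bp. Here too the strongest upstream summit was nearer to its DMSO height than the gene body was. Other JUND upstream summits were absent or lower with ATRA. DMSO had 1476 at -479 bp, where ATRA had no call, and 741 at -789 bp, where ATRA had 511 at -791 bp. From first to last peak the JUND region was 2533 bp wide with DMSO and 2466 bp with ATRA. With the combination each paired JUND summit was above its DMSO counterpart, with 3142 at -282 bp and 2116 at 330 bp.

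ATF3, a stress-induced factor that dimerizes with JUN proteins, spans chr1:212565334-212620777 on the plus strand, and its canonical start lies inside that span at position 212608761. In DMSO the summits at -226 and 14 bp had pileups of 1993 and 2261, and those at 492 and 759 bp had 1172 and 758. With ATRA the promoter summits at -215, -132 and -42 bp had 1434, 1564 and 1533, and those at 453 and 756 bp had 760 and 469. At ATF3 the promoter was lower as well as the gene body. With the combination the summits at -228, 32, 483 and 751 bp had 2153, 2222, 1390 and 913.

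**Figure D1:**
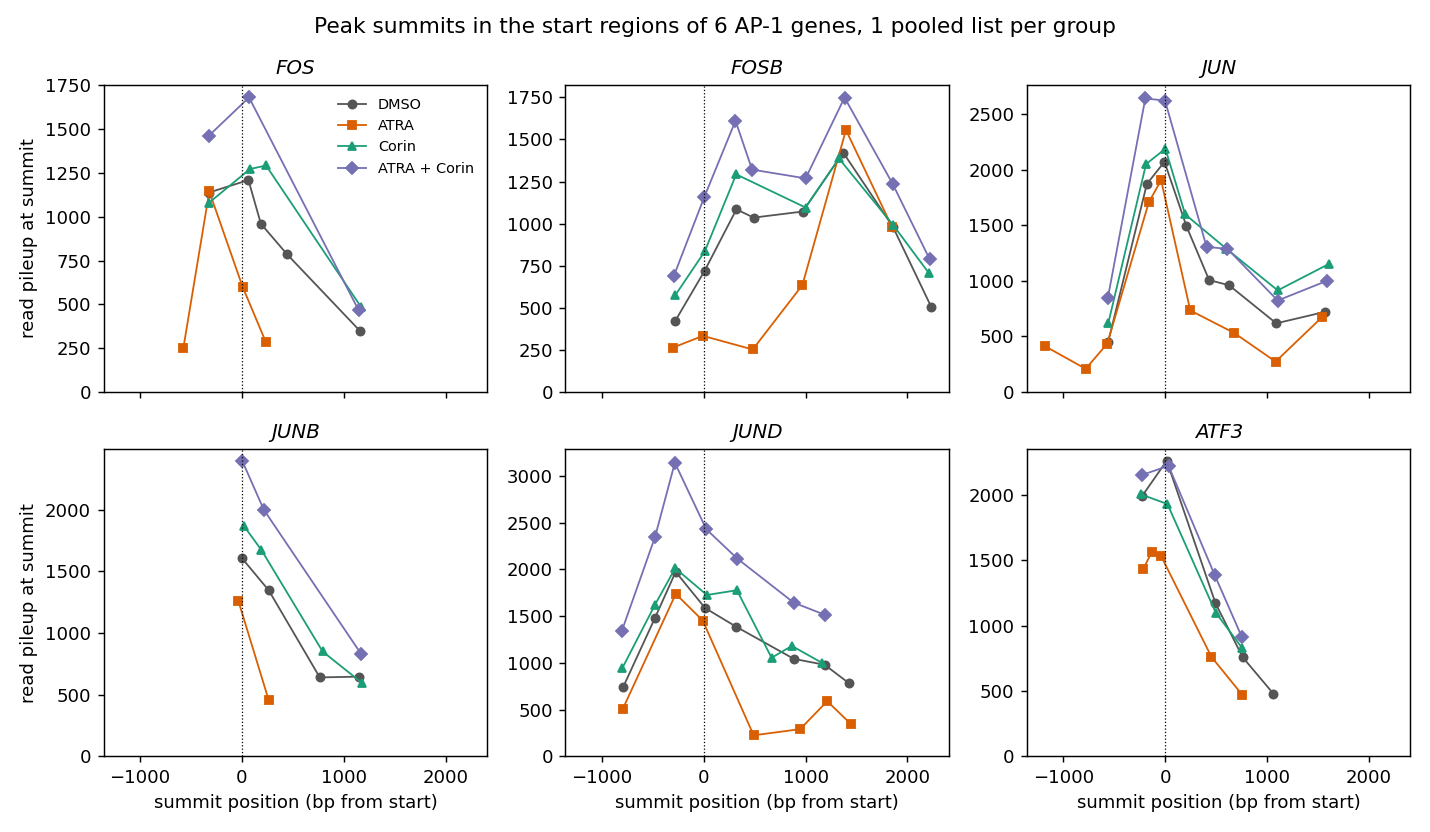
Read pileup at each called peak summit (vertical axis, reads) against its distance from the gene start (horizontal axis, bp, positive inside the gene) for FOS, FOSB, JUN, JUNB, JUND and ATF3, with 1 pooled list per group, lines joining the summits of 1 list and no error bars because each group has 1 list. With ATRA most summits inside the gene sit below those of the other 3 lists. In FOSB, ATRA has 1556 near 1397 bp, where DMSO has 1422. Near 1851 bp in FOSB, ATRA has 978 and DMSO 982, and near 1540 bp in JUN they have 675 and 721.

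The 4 other genes differed from these in having no paired downstream summit lower past 1.5-fold with ATRA. FOSL1, a FOS protein without a strong transactivation domain, spans chr11:65892049-65900573 on the minus strand, and its start summit had pileups of 841, 703, 954 and 1415 in DMSO, ATRA, Corin and the combination. FOSL2, the other FOS protein of that kind, spans chr2:28392448-28417317 on the plus strand, and its start summit had 1849, 1979, 1811 and 2409. With ATRA the paired downstream summits of FOSL1 were at 0.697 to 0.956 of their DMSO pileup and the 1 of FOSL2 at 0.835, and the called cover of the first 1500 bp of FOSL2 was 54.1% in DMSO and 42.3% with ATRA. BATF, a JUN partner that lacks a transactivation domain and is best known in lymphoid and dendritic cells, spans chr14:75522455-75546993 on the plus strand. Its start summit was the lowest of the 10 in every list, with pileups of 336, 392, 350 and 472. BATF was the only AP-1 gene with a downstream summit past 1.5-fold higher with ATRA, 245 at 387 bp against 143 at 390 bp in DMSO. BATF3, a BATF relative needed for a class of dendritic cells, spans chr1:212686417-212699840 on the minus strand. The strongest BATF3 summit was at 459 bp with DMSO and 455 bp with ATRA, with pileups of 1011 and 1103, and at -15 bp with Corin, with 1174. With the combination the summits at 4 and 453 bp were nearly level, with 911 and 892. Near the BATF3 start the DMSO summit at -16 bp had 774, and the nearest ATRA summit, at 73 bp, was lower, with 523.

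To compare the pattern with other genes, each DMSO summit within 1500 bp of a start was paired with the nearest summit within 60 bp in a treatment list. This comparison was chosen after the values at the starts were seen. Summits beyond 1500 bp were left out, among them FOSB at 1857 bp and JUN at 1567 bp, both near their DMSO height with ATRA. The FOSB summit at 2235 bp, which had no call with ATRA, was left out too. With ATRA, 23 of the 32 summits more than 100 bp downstream of an AP-1 gene start had a partner, and 11 of the 23 (47.8%) had a pileup lower by more than 1.5-fold, against 3.92% at the 11434 protein-coding starts inside a region of all 4 lists. The 11 came from 6 genes, FOS, FOSB, JUN, JUNB, JUND and ATF3, so they are not 11 independent observations. The median ratio of the paired downstream summits was 0.697 for AP-1 genes and 1.13 for coding genes. A further 9 of the 32 (28.1%) had no partner with ATRA, against 13.3% at coding starts. The combination also left 9 of the 32 without a partner (28.1%, coding 22.1%), and Corin left 11 (34.4%, coding 30.8%). Upstream of the start, 1 of 14 paired summits (7.14%) was lower past 1.5-fold, against a background of 2.55%, and the median ratio was 0.916 where coding starts had 1.11. Within 100 bp of the start, 2 of 8 paired summits (25%) were lower past 1.5-fold, against 2.78%, and the median ratio was 0.850 where coding starts had 1.06.

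With Corin alone 1 of 21 paired downstream summits was lower past 1.5-fold, against 7.66% at coding starts, and that 1 was in BATF3. With the combination it was 0 of 23, against 2.18%, and the median ratio was 1.33 where coding starts had 1.20. The difference between ATRA and the combination at these summits has no replicate check, because each group is 1 list.

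The called length, a measure also chosen after the values at the starts were seen, differed in the same places. In DMSO, called regions covered 89.9% of the first 1500 bp of FOS, 84.1% of JUNB, 83.9% of ATF3 and 100% of FOSB, JUN and JUND. With ATRA they covered 21% of FOS, 22.7% of JUNB, 61.5% of ATF3, 76.5% of FOSB, 83.3% of JUN and 79% of JUND. With the combination the values were 94.7%, 86.3%, 83.4% and, for the last 3, 100%. A loss of 20 percentage points or more with ATRA was seen at 5 of the 10 genes (FOS, FOSB, JUNB, JUND and ATF3) and at 2.62% of coding starts. Coding starts had a mean cover of 45.4% in DMSO and were not matched to these genes for cover. Many of them had less cover to lose, so the coding shares given here are not a like-for-like background. Only FOS and JUNB lost 30 points or more, against 1.1% of coding starts. The genes that lost 20 points with Corin were FOSL2, from 54.1% to 21.7%, and BATF, from 72.1% to 45.6%, against 3.77% of coding starts. With the combination it was BATF alone, at 45.2%, against 2.97%.

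**Figure D2:**
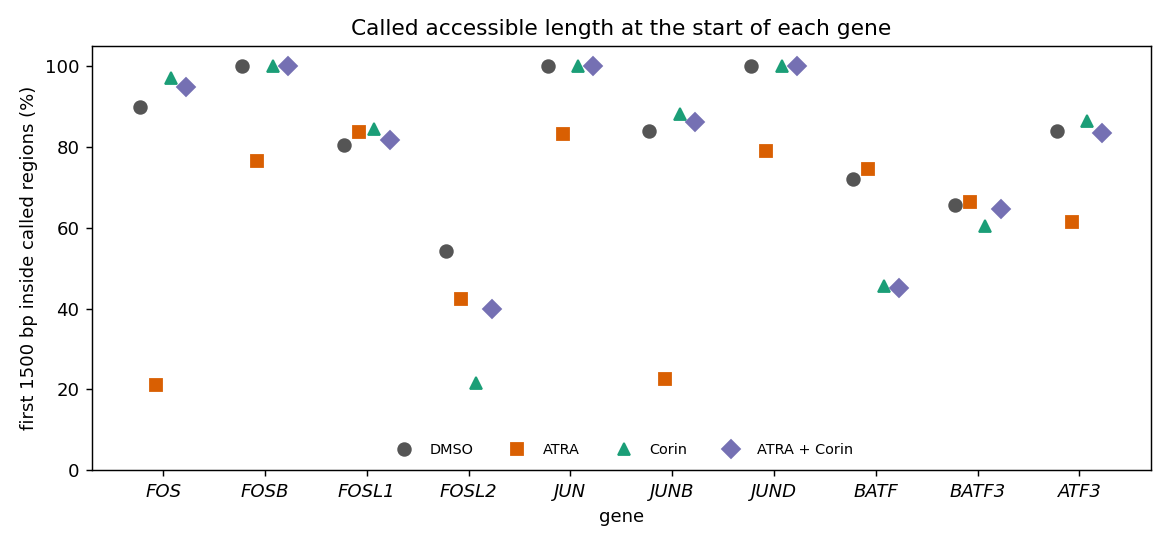
Share of the first 1500 bp of each gene that lies inside called regions (vertical axis, %) for the 10 AP-1 genes (horizontal axis), 1 point per pooled list. ATRA is the lowest point at FOS (21%) and JUNB (22.7%), and Corin and the combination are the lowest at BATF (45.6% and 45.2%).

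The authors' fold, column 7 of the peak lists, sets the pileup of a peak over a local background, and at some of these starts it differed in direction from the pileup. The fold of the strongest FOS peak was 5.71 with DMSO, 9.65 with ATRA, 5.02 with Corin and 5.18 with the combination. The fold at FOSB was 5.70, 12.9, 4.68 and 4.99 in the same order, and at JUND it was 5.66, 9.48, 4.84 and 5.32. ATRA had the highest fold of the 4 lists at all 10 starts. To remove the difference in scale between lists, each ratio of folds was divided by the median ratio over the 66303 regions, which was 1.24 for ATRA over DMSO. After that division the ratio was 1.83 at FOSB, above 99.3% of coding starts, 1.37 at FOS and 1.35 at JUND. FOSB was the only AP-1 start past 1.5-fold higher with ATRA, against 1.79% of coding starts, and 0 of 10 were past it lower, against 2.69%. The other ratios were 1.23 at BATF3, 1.14 at JUN, 1.06 at ATF3, 0.975 at BATF, 0.948 at FOSL2, 0.935 at FOSL1 and 0.841 at JUNB, and the coding median was 0.883.

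The local background moved under these folds. It was 211 with DMSO and 118 with ATRA at FOS, 249 and 120 at FOSB, 348 and 182 at JUND, 214 and 112 at ATF3, and 262 and 170 at JUN. At these 5 of the 10 genes it was lower past 1.5-fold, against 5.56% of coding starts, where the median ratio was 0.979. Local background and pileup were solved from the same fold and −log10 p of each peak, so they are not independent measures. Which reads entered the local background is not given in the sources used here. With Corin and with the combination it was lower past 1.5-fold at 0 of 10 genes, against 0.271% and 0.533% of coding starts. It was higher past 1.5-fold at 0 of 10 with ATRA (1.06% of coding starts), at 0 of 10 with Corin (0.385%) and with the combination at 3 of 10, FOS, FOSL1 and JUND (7.5%). The pileup of the strongest FOS peak was 1209 with DMSO, at 64 bp, and 1144 with ATRA, at -320 bp. Its higher fold with ATRA came with no higher pileup. The DMSO summit at -322 bp had a pileup of 1138 and a fold of 5.43. At 6 of 10 starts the divided fold ratio was above 1 with ATRA, and at 3 of 10 the divided pileup ratio was. The direction of a difference at these promoters therefore depends on which of the 2 measures is read. The median local background in DMSO was 230 at AP-1 starts and 65.4 at coding starts.

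When Corin was added to ATRA the fold at FOSB and FOS was lower past 1.5-fold, with divided ratios of 0.471 and 0.654, against 1.63% of coding starts, and it was 0.683 at JUND. No start was higher past 1.5-fold, against 5.19% of coding starts. The pileups of these strongest peaks were higher, at 1749 against 1556 for FOSB, 1680 against 1144 for FOS and 3142 against 1738 for JUND. At FOS they are different summits, at 70 bp with the combination and at -320 bp with ATRA. The FOS fold ratio therefore also compares different positions. The upstream FOS summit had 1462 with the combination and 1144 with ATRA, and the summit next to the start had 1680 and 600. No AP-1 start was past 1.5-fold with Corin over DMSO (backgrounds of 1.05% higher and 0.673% lower) or with the combination over DMSO (1.93% and 0.848%). The same held for the combination over Corin (1.09% and 0.717%).

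**Figure D3:**
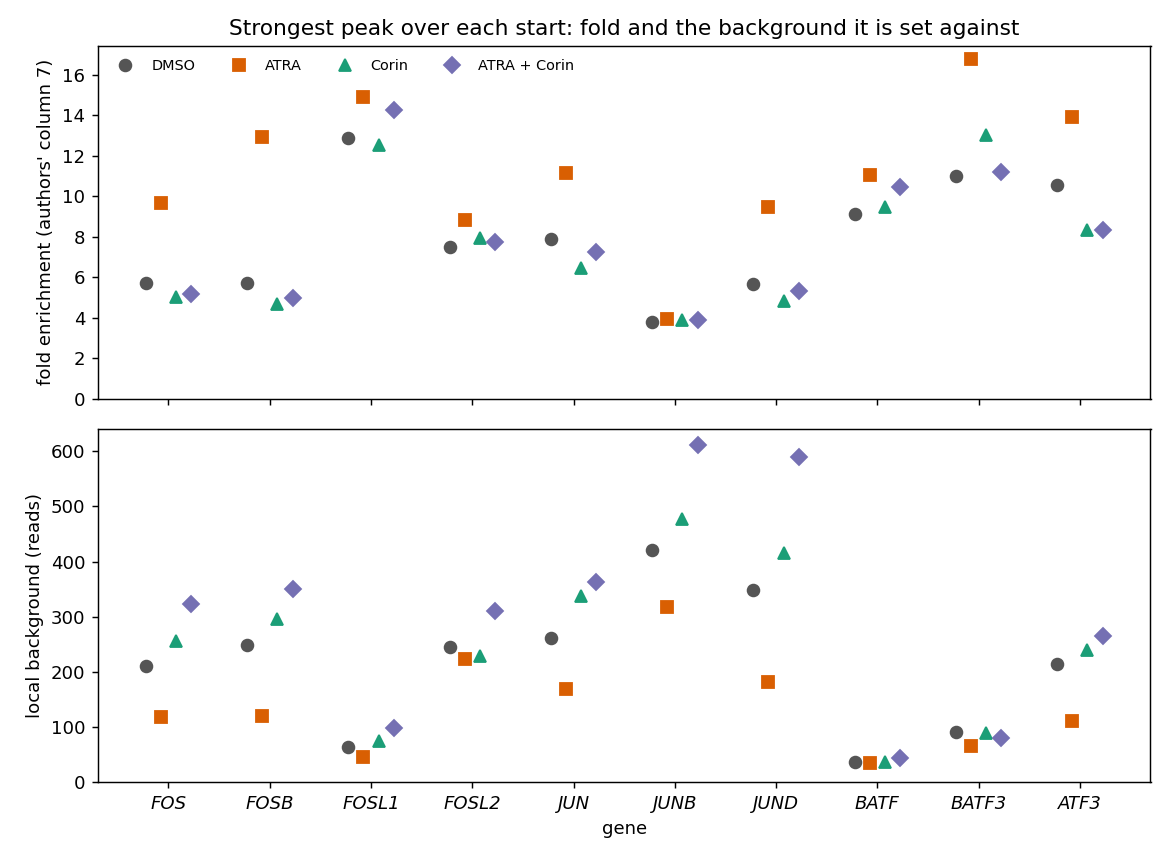
Authors' fold enrichment (upper panel) and local background in reads (lower panel) of the strongest peak over the start of each of the 10 AP-1 genes, 1 point per pooled list. At FOSB the ATRA point has the highest fold, 12.9, and the lowest background, 120.

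Start regions with the most similar pattern of folds over the 4 lists were found by the distance between log2 folds, each less its list median. The nearest to FOS was JUND, at a distance of 0.07, followed by LIF at 0.17 and ALDH3A2 at 0.20. The nearest to JUN were GPR84, at 0.09, NEURL4 at 0.13 and NASP at 0.14. These distances rest on 4 lists.

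Around the genes, regions near AP-1 genes were shared by the lists more often than regions in general. The windows are centred on genes, and the set of all regions was not matched to them for distance to genes or for strength. The median local background in DMSO over regions of all 4 lists was 68.2 in the windows and 25.1 in general. These shares therefore do not set AP-1 genes apart from other genes. Of the 201 regions, 112 (55.7%) were called in all 4 lists, against 41.1% of all regions, and 57 were called in 1 list. Of the 66 regions within 1 kb of an annotated start, 52 were in all 4 lists, compared with 23 of 43 intronic, 32 of 74 intergenic and 5 of 18 exonic regions. The commonest patterns after that were ATRA alone with 22 regions, DMSO alone with 19 and Corin alone with 13.

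A region was called gained with a treatment when it shared not even 1 bp with the list it was set against, and lost in the reverse case. With ATRA, 26 of 168 regions were gained, 15.5% with a Wilson 95% interval of 10.8 to 21.7%, against 23.1% of all regions. Against DMSO 31 of 162 were lost with ATRA, 19.1% (13.8 to 25.9%), against 25.3%. With Corin 15 of 146 were gained, 10.3% (6.33 to 16.3%), against 17.7%, and 32 of 162 were lost, 19.8% (14.4 to 26.6%), against 28.5%. The combination gained 9 of 138, 6.52% (3.47 to 11.9%), against 16.7%, and lost 36 of 162, 22.2% (16.5 to 29.2%), against 31.5%. Set against ATRA alone, the combination gained 11 of 138 (7.97%, background 15.5%) and lost 32 of 168 (19.0%, background 28.4%). Set against Corin alone, it gained 14 of 138 (10.1%, background 20.6%) and lost 23 of 146 (15.8%, background 25%). In each comparison the share near AP-1 genes was below that of all regions, and the interval reached the background only for loss with ATRA. The intervals cover counting error only, and all regions are the same unmatched set as above. Gains with ATRA were most numerous at FOS with 7, ATF3 with 6, and JUN and BATF3 with 4 each, and JUND had 0.

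**Figure D4:**
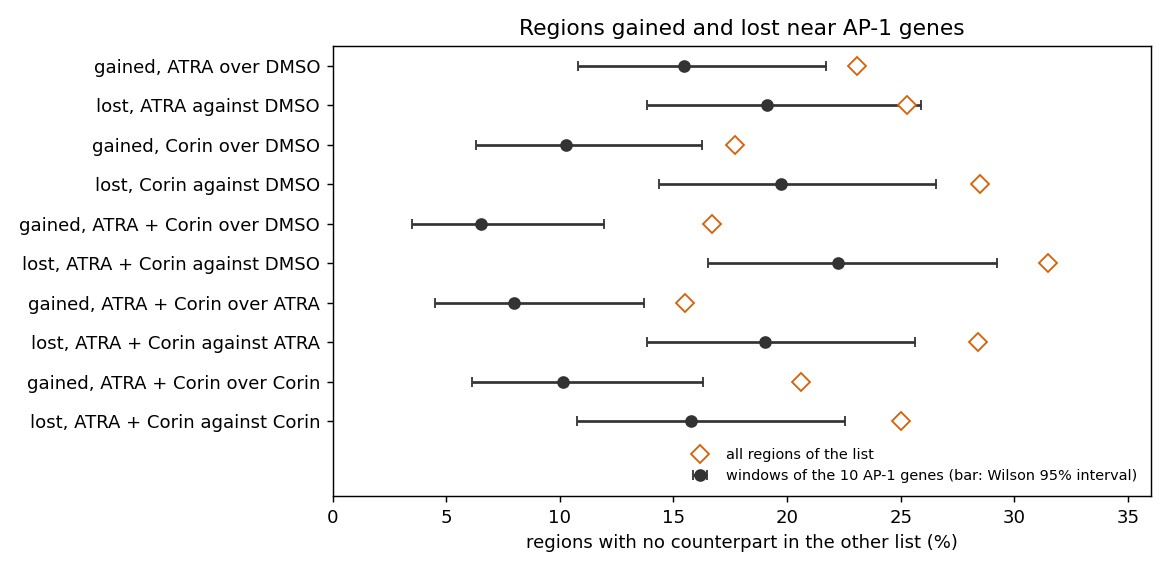
Share of regions with no counterpart in the other list (horizontal axis, %) for each comparison (rows), with black points and Wilson 95% intervals for the windows of the 10 AP-1 genes and open diamonds for all regions of the list. The black points lie left of the diamonds in all 10 rows, for example 6.52% against 16.7% for gain with the combination.

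Most gained and lost regions were weak peaks. The median −log10 p of the 26 regions gained with ATRA was 17.6, against 329 for shared regions of that list in the same windows. The strongest was the FOSL2 region at -49460 bp, chr2:28343047-28343556, whose sequence is printed above. Its fold was 14.7 with ATRA and 3.73 with the combination, and no peak was called with DMSO or Corin. The BATF region at -26336 bp had 8.50 with ATRA and 4.55 with the combination, and the FOS region at 4920 bp had 3.97 and 1.75, both again without a peak in DMSO or Corin. At ATF3 the region at 26582 bp had 3.77 and 3.12. The median ratio of folds between the combination and ATRA was 0.820 over regions of all 4 lists, and the ATF3 values stand in about that ratio, while the fold with both compounds was further below ATRA at the FOSL2, BATF and FOS regions. The fifth, at 18722 bp from FOS, was called with ATRA alone at 2.66.

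The strongest region lost with ATRA was also at FOSL2, at 44792 bp, with folds of 5.64 in DMSO, 7.21 with Corin and 6.98 with the combination. The FOS region at 18189 bp, which lies beside the ATRA region at 18722 bp, had 2.32, 2.86 and 2.38 in the same 3 lists. The JUND region at -8999 bp had 2.43, 3.06 and 1.62, the region shared by the ATF3 and BATF3 windows had 5.39 in DMSO and 5.02 with Corin, and the JUNB region at 39226 bp was called in DMSO alone at 3.24. Of these strongest 5, the FOSL2, FOS and JUND regions were called again when Corin was present with ATRA. Among all 201 regions, 5 (2.49%) were called in every list but ATRA, near the 2.45% of all regions. A call in DMSO and the combination only was seen in 0 of the 201, against 0.994% of all regions. A further FOSL2 region, at 53209 bp, falls outside the rule for naming regions and was singled out after its values were seen. It had a fold of 3.34 with DMSO and 8.31 with Corin, and no call in either list with ATRA.

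Regions gained with Corin were weaker, with a highest −log10 p of 41.7. The strongest lay at -39078 bp from FOSB, in the promoter annotation of ERCC1, with folds of 2.84 with Corin and 1.77 with the combination. The ATF3 region at -30628 bp, inside the gene, had 3.47 and 5.29. Among regions lost with Corin were JUNB 5217 bp, with folds of 2.39 in DMSO, 4.37 with ATRA and 1.64 with the combination, and FOSL1 -11596 bp, with 4.28, 10.9 and 2.74. In both, Corin alone had no call. Among the lists with a call, ATRA had the highest value and the list with both compounds the lowest. FOSL2 2794 bp had 2.27, 2.94 and 2.23, which differ by little more than the scale of the lists.

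Among the 112 regions called in all 4 lists, the divided fold ratio of ATRA over DMSO was past 1.5-fold higher in 11 (9.82%, background 14%) and lower in 5 (4.46%, background 7.41%). Without the division the shares were 28.6% and 1.79%, and those of all regions 28.5% and 2.69%. The largest ratio, 2.25, was at FOSL1 -41135 bp, with folds of 7.56 in DMSO, 21.0 with ATRA, 3.82 with Corin and 9.51 with the combination. Its pileups were 108, 271, 53 and 141, so the pileup and the fold ran the same way there. The sequence of this region, printed above, holds TGAGTCA. At FOSL2 31217 bp, the window with the PU.1 letters, the folds were 10.1, 23.6, 6.90 and 17.1 and the pileups 242, 604, 183 and 579.

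Other regions higher with ATRA were ATF3 -65704 bp, with folds of 5.27, 13.5, 3.55 and 5.31, and BATF3 -10895 bp, with 5.74, 13.7, 3.37 and 4.95. In all of these Corin alone had the lowest fold of the 4 lists. At FOS 5283 bp, just past the end of the gene, the fold was 3.33, 9.04, 2.40 and 2.90. The pileup there was 397, 488, 354 and 587 and the local background 119, 53.1, 147 and 202, so that the highest pileup was in the combination and the highest fold in ATRA.

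The smallest ratio with ATRA, 0.398, was at BATF 44099 bp, an intergenic region nearest to the start of FLVCR2. Its folds were 7.87, 3.88, 10.2 and 3.97 and its pileups 291, 49, 438 and 80. Both lists with ATRA were low there and both without it were high. JUN -39844 bp, in an intron of a gene other than JUN, had a ratio of 0.480, with folds of 8.14, 4.84, 13.0 and 10.8 and pileups of 116, 48, 363 and 205. Here the list with both compounds stood above DMSO and only ATRA alone was low. Both windows hold an AP-1 site, as printed above. Of the 4910 regions lower with ATRA over the genome, 33.2% held one, against 9.43% of the 9287 that were higher. The AP-1 letters were in 2 of the 5 lower regions near AP-1 genes and 1 of the 11 higher ones.

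The rest of the lower regions were JUNB -8799 bp, with folds of 3.34, 2.31, 3.11 and 2.21, JUN 44001 bp, with 4.69, 3.36, 4.89 and 5.68, and JUNB 42320 bp, at the promoter of RTBDN, with 4.66, 3.52, 6.67 and 6.97. At the last the pileups were 313, 165, 472 and 534.

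With Corin alone 4 of the 112 regions were higher (3.57%, background 5.17%) and 4 lower (background 10.4%). The largest ratio, 1.81, was at BATF 1478 bp, inside the gene, with folds of 4.79 in DMSO, 5.61 with ATRA, 8.15 with Corin and 6.32 with the combination, and pileups of 167, 191, 294 and 281. FOSL2 16599 bp, in the gene's own intron, had 8.18, 7.49, 12.3 and 9.93, with pileups of 746, 571, 1192 and 1326. The other 2 were JUN -39844 bp and JUNB 42320 bp, described above among the regions lower with ATRA. The 4 lower regions were FOSL1 -41135 bp and BATF3 -10895 bp, both among the higher regions with ATRA, together with JUND -36815 bp, with folds of 4.58, 4.87, 2.56 and 3.81, and JUN -45990 bp, with 5.26, 7.30, 3.06 and 2.79. The ratios over DMSO share the DMSO list, so an opposite direction in 2 treatments is given here only as values side by side.

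With the combination over DMSO 4 regions were higher (background 7.88%) and 5 lower (4.46%, background 12.1%). On the solved pileup 14 were higher (12.5%, background 12%). The highest were JUN -49256 bp, with folds of 3.19, 7.34, 3.01 and 5.49, and FOSL1 26668 bp, at the promoter of EFEMP2, with 7.55, 9.76, 10.5 and 12.9. Among the lower ones was JUN 10466 bp, downstream of the gene, with 15.9, 18.2, 11.2 and 8.63. Set against ATRA alone the combination was higher in 8 regions (7.14%, background 6.12%) and lower in 11 (9.82%, background 15.6%), and without the division in 3.57% and 25%, where all regions had 2% and 28.1%. On the solved pileup 21 were higher (18.8%, background 11.8%). Set against Corin alone it was higher in 5 (background 9.81%) and lower in 3 (background 8.24%), and on the solved pileup lower in 11 (9.82%, background 15.1%).

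**Figure D5:**
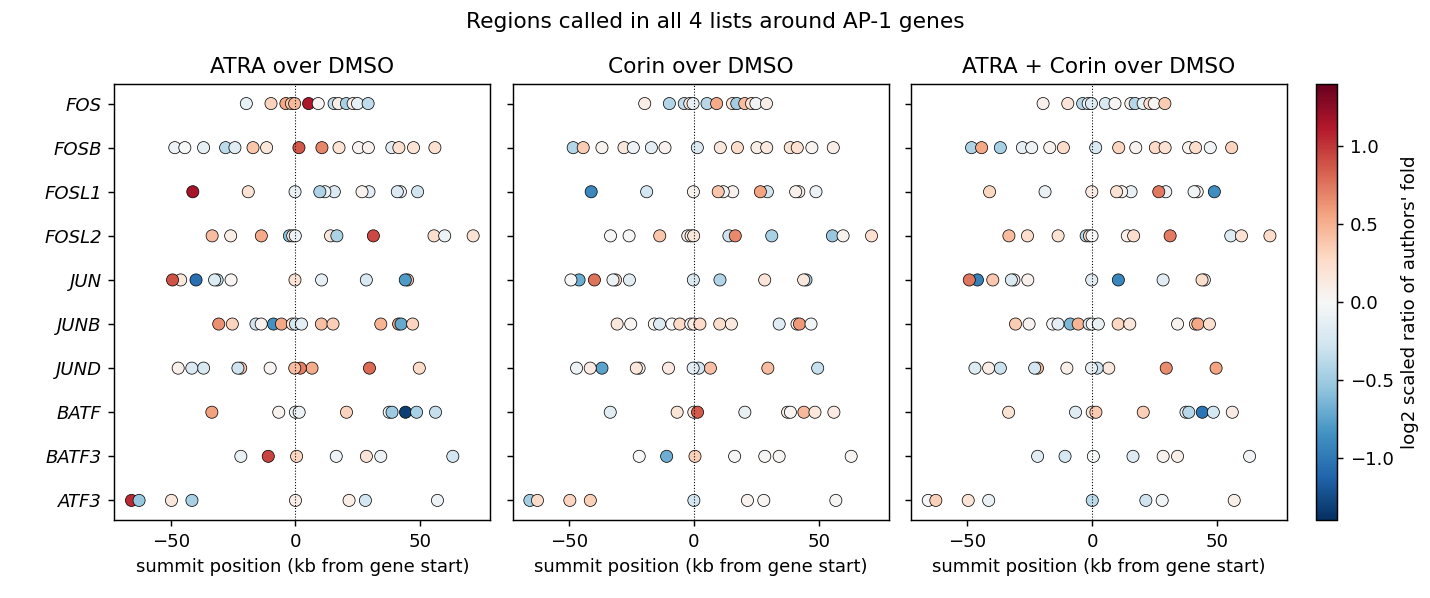
Each point is a region called in all 4 lists, placed by the distance of its summit from the start of the AP-1 gene (horizontal axis, kb, positive in the direction of transcription) and coloured by the log2 of the ratio of the authors' folds after division by the median ratio, for each treatment over DMSO. The darkest red points with ATRA include FOSL1 -41135 bp (ratio 2.25) and the darkest blue is BATF 44099 bp (0.398).

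Regions of the AP-1 windows were richer in G and C than regions in general, with a median of 56.5% against 49.5%. Regions gained with ATRA had a median of 44.8% and those lost 57.3% near AP-1 genes, and 43.5% and 54% over all regions.

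Among other genes of the pathway, all 7 related leucine zipper partners (BATF2, JDP2, ATF2, ATF7, MAFF, MAFG and MAFK) and all 10 upstream kinases and regulators, among them SRF, which binds CArG boxes, and DUSP1, a phosphatase that switches kinases off, had starts in a region of all 4 lists. Of 15 textbook AP-1 target genes 10 did, a share near the 57.1% of coding genes. No list had a region over the start of CCND1, IL6, MMP1 or MMP3, and MMP9, a matrix protease, had no start region with ATRA and folds of 2.13, 2.06 and 1.35 in the other lists. No gene of the 3 lists was past 1.5-fold at its start with ATRA or with Corin. With the combination MAPK9, a JUN kinase, was lower, with folds of 13.4, 12.8, 12.5 and 5.17. JDP2, which represses AP-1, had folds of 7.45, 12.9, 7.03 and 7.35, and DUSP1 had 6.73, 9.44, 6.03 and 5.84, so that in both ATRA was the highest list. The median divided ratio with ATRA was 1.10 at the AP-1 starts, 0.821 at the zipper partners, 0.870 at the upstream genes and 0.872 at the targets, against 0.883 at coding starts.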

How the data were processed

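ATAC-seq was read from 4 deposited peak lists, 1 for each group of 2 samples, in hg38. Per the submitters' processing notes cutadapt, Bowtie2, SAMtools, Picard and MACS2 were used, and their versions and settings are not given in the sources used here. The authors' lists hold for each peak a fold over local background (column 7), −log10 of the p-value, −log10 of the q-value and a display score. The lowest deposited −log10 p was 2.79 in DMSO and 2.00 in the other lists. Columns of single samples left unused numbered 0.

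Peaks were merged into regions and lists compared at 1 bp of overlap. A region's fold is that of its peak with the highest −log10 p, and a ratio counts as past the limit beyond 1.5-fold after division by the median ratio. Because union regions can bridge neighbours, a count over union regions can differ slightly from a count over 1 list. Pileup and local background were solved from the authors' fold and −log10 p, taking the p-value as Poisson and the fold as (pileup + 1)/(background + 1). In the windows 1 region, 41441 bp from FOSB, gave no whole pileup, with Corin.

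Named were all 10 genes and, for each treatment over DMSO, the 5 strongest gained and lost regions and up to 5 with the largest and smallest ratio, except that weaker ones of these are left out of the text for Corin and the combination. Members and gene lists were chosen with earlier results of these data known. Shares carry Wilson 95% intervals. Scripts were tested on simulated data. Alternatives were windows of 10 and 100 kb, stricter q, other overlap and merging, lists of equal length, no division, and pileup in place of fold. Python 3.11.15, numpy 2.4.6, pandas 2.3.3 and scipy 1.17.1 were used.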

Additional observations from a re-analysis of the deposited data

How the results depend on the processing

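The main limit is that each group is 1 pooled list: spread between samples, leaving out a sample and tests were not possible, and library depth is not given. No paired analysis was possible because each group has 1 pooled list and its columns carry no replicate number. Of 176 recomputed values, 145 were labelled unchanged and 31 moved. Shares of regions labelled unchanged lay inside the Wilson interval of the reported share, which is wide, so they need not be close to it. For example, the reported share lower with ATRA over DMSO, 4.46%, was 9.82% on solved pileup and 2.44% in windows of 10 kb. The share higher with Corin over DMSO, 3.57%, was 8.04% on solved pileup. All of these were labelled unchanged. Windows of 10 kb gave 5.36% gained and 13.2% lost with ATRA, 11.3% lost with Corin and with the combination, 3.57% lost with the combination against ATRA and 10% against Corin, and 0 regions lower with Corin. With a −log10 q of at least 5, 5.84% were gained with Corin (all regions 11.2%). Lists of equal length gave losses of 12.4% with Corin, 14.5% with the combination and 11.5% with the combination against ATRA (all regions 19.7%, 20.8% and 19%). Without division by the median, ATRA over DMSO gave 28.6% higher and 1.79% lower (all regions 28.5% and 2.69%), and the combination over ATRA 3.57% and 25%. Solved pileup gave 12.5% higher for the combination over DMSO, 18.8% higher over ATRA and 9.82% lower over Corin (all regions 12%, 11.8% and 15.1%). Other settings at the starts were chosen after the data were seen, as was a shared floor on −log10 p. For cover of the first 2000 bp, 2 genes lost 20 points with ATRA (1.5% of coding starts) and 1 with Corin (2.1%). For the first 1000 bp it was 2 with the combination (5.31%). A drop of 30 points left 2 genes with ATRA, 1 with Corin and 0 with the combination (coding starts 1.1%, 1.15% and 0.84%). A drop of 10 points gave 2 with the combination (10.5%). Local background with ATRA was lower past 1.3-fold at 8 genes (13.1% of coding starts) and past 2-fold at 1 (1.28%). Paired downstream summits lower past 2-fold were 26.1% with ATRA and 0 with Corin (coding starts 1.16% and 0.793%). Those lower past 1.5-fold after division by the coding median were 0 with Corin and 4.35% with the combination (coding starts 5.22% and 6.75%). The causes of these moves were not tested.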
